A study of Mus musculus with 60 samples.

Results

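Expression of 8 genes was followed in 60 libraries of mouse prefrontal cortex: Drd1, Drd2, Adora2a, Gpr6, Ppp1r1b, Rgs9, Pde10a and Six3, chosen by name as genes of striatal projection neurons and dopamine receptors. All 8 were found among the 18088 genes of the table, through GENCODE M21 symbols, and all 8 passed the filter on low values (at least 10 normalised reads in at least 5 libraries). The C57BL/6J mice were heterozygous for the C456Y allele of Grin2b (Het), the gene for the NMDA receptor subunit GluN2B, or wild type (WT). Pups of both sexes were given fluoxetine, lithium or vehicle through maternal milk for 3 weeks, from postnatal day 3 to 24, and tissue was taken on postnatal day 25. Fluoxetine blocks serotonin reuptake, and lithium is a mood stabiliser. Each of the 6 genotype and treatment groups held 10 libraries, 5 female and 5 male. The labels do not say whether replicates are separate animals or litters, and pups nursed by a treated mother would share her drug, so p-values measure only the spread between these samples.

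The striatum lies next to the deep layers of frontal cortex and consists mostly of spiny projection neurons, which receive dense dopamine input. Spiny neurons of the direct pathway carry the D1 receptor, encoded by Drd1, which raises cyclic AMP. Those of the indirect pathway carry the D2 receptor, encoded by Drd2, which lowers it, together with the adenosine receptor Adora2a and the orphan receptor Gpr6, which raise it. Both classes hold high levels of DARPP-32, the protein phosphatase 1 inhibitor encoded by Ppp1r1b, of Rgs9, which shortens G protein signals, and of Pde10a, which breaks down cyclic AMP and cyclic GMP. Six3 is a homeobox transcription factor needed in mice for the development of D2-type spiny neurons. Cortical neurons also express Drd1, Drd2 and Ppp1r1b, at lower levels than the striatum.

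In GRCm38 coordinates of GENCODE M21, Drd1 (ENSMUSG00000021478) occupies chromosome 13, 54051183 to 54055705, on the minus strand. Drd2 (ENSMUSG00000032259) is on chromosome 9, 49340627 to 49408177, plus strand. Adora2a (ENSMUSG00000020178) and Gpr6 (ENSMUSG00000046922) are both on chromosome 10, at 75316877 to 75334784 on the plus strand and at 41069977 to 41072285 on the minus strand. Ppp1r1b (ENSMUSG00000061718) and Rgs9 (ENSMUSG00000020599) are both on chromosome 11, at 98348404 to 98357796 on the plus strand and at 109225355 to 109298129 on the minus strand. Pde10a (ENSMUSG00000023868) and Six3 (ENSMUSG00000038805) are both on the plus strand of chromosome 17, at 8525372 to 8986648 and at 85613608 to 85629302. Values are for whole genes, exons of all transcripts together. Six3 overlaps the antisense gene Six3os1, Ppp1r1b overlaps the opposite-strand transcript 1700003D09Rik, and Pde10a overlaps the opposite-strand gene Gm17087. The sources used here do not give strand use in counting, so reads of those partners may be shared.

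Promoter sequence was matched in RefSeq (GRCm38.p6) for 6 of the 8 genes by symbol. Upstream sequences of Drd2, Gpr6 and Pde10a are printed as examples: Drd2 and Gpr6 are receptor genes of indirect-pathway neurons, and Pde10a is the gene that differed with treatment in the 12-group fit. Capitals mark the letters TGACGTCA, TGACG or its reverse complement CGTCA, which are those of cyclic AMP response elements, and GGGCGG or CCGCCC, those of GC boxes. The Pde10a windows belong to different RefSeq starts, and both lie inside its GENCODE span.
Drd2, chr9:49340153-49340402, plus strand: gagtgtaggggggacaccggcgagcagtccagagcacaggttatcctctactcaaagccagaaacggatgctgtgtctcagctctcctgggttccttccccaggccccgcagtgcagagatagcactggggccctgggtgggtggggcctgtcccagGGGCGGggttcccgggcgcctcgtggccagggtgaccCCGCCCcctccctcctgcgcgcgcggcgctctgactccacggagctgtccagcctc
Gpr6, chr10:41072291-41072540, minus strand: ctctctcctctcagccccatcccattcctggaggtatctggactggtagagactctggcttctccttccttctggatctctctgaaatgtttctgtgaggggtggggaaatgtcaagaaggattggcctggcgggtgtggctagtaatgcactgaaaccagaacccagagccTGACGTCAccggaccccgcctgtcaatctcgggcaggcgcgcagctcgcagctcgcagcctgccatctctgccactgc
Pde10a, chr17:8801495-8801692, plus strand: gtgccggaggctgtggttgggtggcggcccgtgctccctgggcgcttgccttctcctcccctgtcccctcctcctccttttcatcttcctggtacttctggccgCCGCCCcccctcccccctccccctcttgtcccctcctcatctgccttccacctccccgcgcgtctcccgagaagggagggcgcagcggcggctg
Pde10a, chr17:8849735-8849984, plus strand: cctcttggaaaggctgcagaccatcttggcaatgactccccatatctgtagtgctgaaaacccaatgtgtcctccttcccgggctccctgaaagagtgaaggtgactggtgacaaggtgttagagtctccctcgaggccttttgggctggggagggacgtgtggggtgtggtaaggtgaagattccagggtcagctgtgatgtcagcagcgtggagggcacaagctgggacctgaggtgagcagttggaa
The window of Gpr6 holds TGACGTCA, in which the shorter TGACG lies on each strand. Neither that motif nor TGACG alone was found in the windows of Drd2 and Pde10a. The Drd2 window holds 2 GC boxes and the upstream-most Pde10a window 1. Among 32851 RefSeq windows of up to 250 bases upstream, searched on both strands, 1.55% hold TGACGTCA, 17.8% TGACG and 32.7% GGGCGG, so the GC box is common to many promoters. These matches are descriptions of letters only.

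Reads of the 8 genes were counted among 23901635 to 37769417 reads per library. Levels are normalised reads, the deposited read counts divided by 1 size factor per library. Per kilobase of the longest transcript, the median level over the 60 libraries was 934.2 normalised reads for Ppp1r1b, 279.6 for Pde10a, 120.5 for Rgs9 and 60.51 for Drd1. It was 40.42 for Adora2a, 27.5 for Gpr6, 16.13 for Drd2 and 1.229 for Six3. The signalling genes Ppp1r1b, Pde10a and Rgs9 thus stood above the receptors in the order of levels per length. The counts behind the values ranged from 1221 to 6939 reads per library for Pde10a, but from 16 to 658 for Drd2 and from 0 to 193 for Six3, so Six3 is the least precise. Six3 was at 0 in 10 libraries, and a count of 0 allows up to 3 reads.

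**Figure D1:**
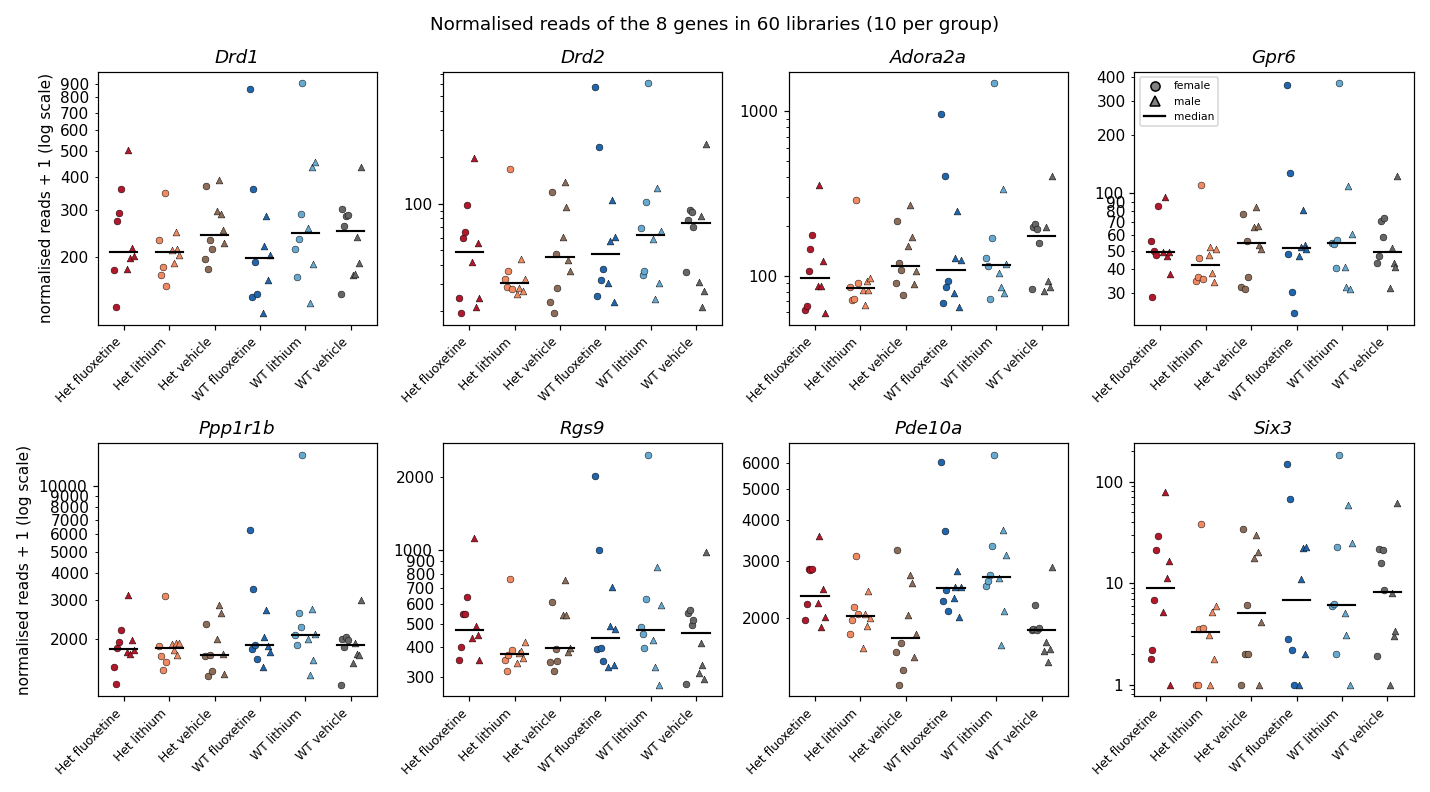
Normalised reads + 1 of the 8 genes on log axes, 1 point per library (circles female, triangles male), for the 6 genotype and treatment groups, with the median of the 10 libraries as a line. The groups overlap in every panel, single libraries of WT fluoxetine and WT lithium mice stand far above the others, and the Pde10a medians of the WT fluoxetine and WT lithium groups lie above that of WT vehicle.

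The receptor genes differed far more between libraries of 1 group than between groups. Drd1 reached from 121.2 to 902.6 normalised reads over all libraries. Its median was 207.3 in Het fluoxetine, 207.0 in Het lithium, 240.8 in Het vehicle, 196.0 in WT fluoxetine, 244.4 in WT lithium and 249.0 in WT vehicle libraries. The highest of these medians was 1.27 times the lowest, while the range within WT lithium alone ran from 133.0 to 902.6.

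Drd2 spanned 18.3 to 604.5 normalised reads. Its lowest, median and highest libraries were 18.4, 47.6 and 196.1 in Het fluoxetine, 24.7, 29.5 and 167.8 in Het lithium, and 18.3, 43.9 and 136.1 in Het vehicle mice. In WT mice they were 21.9, 46.3 and 571.0 with fluoxetine, 22.9, 61.3 and 604.5 with lithium, and 20.1, 73.6 and 243.3 with vehicle. The lowest libraries were alike in all 6 groups, and each group had 1 or more libraries several times above its median.

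Adora2a followed the same layout. Its lowest, median and highest libraries were 58.1, 95.8 and 353.9 in Het fluoxetine, 65.0, 82.9 and 289.6 in Het lithium, and 75.2, 113.5 and 267.0 in Het vehicle mice. In WT mice they were 63.7, 107.7 and 959.7 with fluoxetine, 71.2, 115.4 and 1479.6 with lithium, and 80.2, 173.5 and 402.8 with vehicle. Again all 6 groups overlapped. Gpr6 spanned 22.6 to 369.2 normalised reads, and its group medians lay between 41.2 in Het lithium and 54.0 in Het vehicle libraries.

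Six3 was lowest of all. Its lowest, median and highest libraries were 0, 7.9 and 77.8 in Het fluoxetine, 0, 2.3 and 37.4 in Het lithium, and 0, 4.1 and 33.2 in Het vehicle mice. In WT mice they were 0, 5.9 and 148.4 with fluoxetine, 0, 5.0 and 183.2 with lithium, and 0, 7.2 and 59.9 with vehicle. Every group thus held libraries without a Six3 read beside libraries with many.

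A model of the 12 group means was fitted to all 17810 tested genes with limma on log2(normalised reads + 1), on which scale all fold changes are given, and a gene counted as called where its p, adjusted by Benjamini-Hochberg over all genes, was under 0.05. A test for any difference among the 6 genotype and treatment groups called 1 of the 8 genes, Pde10a, with a limma adjusted p = 0.0036. That compares with 56.6% of all tested genes. For the other 7 genes the adjusted p lay between 0.38 for Ppp1r1b and 0.82 for Gpr6. The 6 groups accounted for 4.28% of the variance of Gpr6, 5.1% of that of Drd1, 6.75% for Six3, 6.98% for Drd2, 7.7% for Rgs9, 8.28% for Adora2a and 9.74% for Ppp1r1b. For Pde10a the share was 30.8%, against a median of 21.9% over all genes.

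The spread between libraries of 1 group was among the largest of the transcriptome. On the log2 scale the residual standard deviation was 2.17 for Six3, rank 46 of 17810 genes, 1.18 for Drd2 (rank 268), 0.967 for Adora2a (rank 413) and 0.773 for Gpr6 (rank 674). It was 0.633 for Rgs9 (rank 1191), 0.624 for Drd1 (rank 1238), 0.528 for Ppp1r1b (rank 1846) and 0.395 for Pde10a (rank 3231), where the median gene had 0.164. The value of Six3, which has low counts, fell to 1.42 with a pseudocount of 5 in place of 1.

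Some libraries were far above the rest. The library of WT lithium female 5 ranked highest of 60 for all 8 genes, and that of WT fluoxetine female 1 ranked second for all 8. In WT lithium female 5, Ppp1r1b reached 13882.8 normalised reads, 7.43 times the median library, Adora2a 1479.6, 14.1 times, and Drd2 604.5, 14.7 times. In WT fluoxetine female 1, Ppp1r1b reached 6266.8, Adora2a 959.7 and Drd2 571.0 normalised reads. These 2 libraries were close in Drd2 and further apart in Ppp1r1b and Adora2a. Libraries above 3 times the median numbered 8 for Drd2, 6 for Adora2a, 2 each for Drd1, Gpr6, Ppp1r1b and Rgs9, and 0 for Pde10a. For Six3, whose median was 4.5 normalised reads, they numbered 21. Those of Drd2 came from all 6 groups: WT lithium female 5 and male 3, WT fluoxetine females 1 and 3, WT vehicle male 5, Het fluoxetine male 2, Het lithium female 4 and Het vehicle male 2. The Drd1 to Drd2 ratio of normalised reads was lowest in the same top libraries, 1.49 in WT lithium female 5 and 1.5 in WT fluoxetine female 1, against a median of 4.97 over all 60, so Drd2 was raised there more than Drd1. Without these 2 libraries the residual standard deviation was 1.02 for Drd2, 0.766 for Adora2a, 0.351 for Ppp1r1b and 0.333 for Pde10a.

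The 8 genes rose and fell together from library to library. After each library's own group mean was subtracted, Pearson's r between pairs of the 8 genes over 60 libraries ran from 0.78 (Ppp1r1b and Six3) to 0.97 (Adora2a and Rgs9), with a median of 0.90. Spearman's rho ran from 0.76 to 0.94. All 28 pairs had a two-sided permutation p = 1e-05, the smallest that 100000 permutations can give, and 1e-05 after adjustment over the 28 pairs. The 8 genes and the marker lists below were chosen with earlier results of these data known. Permutation p-values here and for the lists are thus not an independent test of co-variation. Without the 2 libraries farthest from the median the range of r was 0.79 to 0.95. The labels give no batch.

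The genes most like the mean of the 8 in the whole table were mostly other striatal genes. Likeness was measured as r between within-group residuals over the 60 libraries. Among the 10 most alike by rank were Cd4 (0.95), Rarb (0.95), Sh3rf2 (0.93), Gng7 (0.93), Lrrc10b (0.93), Isl1 (0.92), Serpina9 (0.92), Tac1 (0.91) and Adcy5 (0.91). All of these except Cd4 were on a list of other striatal projection neuron genes. Rarb encodes a retinoic acid receptor, Tac1 the precursor of substance P, and Adcy5 and Gng7 the adenylyl cyclase and G protein gamma subunit that couple striatal receptors to cyclic AMP. Over all tested genes r reached 0.5 in 1.58%, while it did so in 25 of the 34 tested genes of that list. Others of the 34 did not follow the 8 genes, among them Sp9 (0.07), Gucy1a1 (0.07), Ebf1 (0.04), Meis2 (0.03) and Eya1 (-0.26).

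The level of those 34 genes in a library, their mean log2(normalised reads + 1), tracked each of the 8 genes. It ranged from 7.85 to 9.11 in Het fluoxetine, 7.98 to 8.69 in Het lithium, 7.87 to 8.64 in Het vehicle, 7.93 to 9.64 in WT fluoxetine, 8.08 to 9.63 in WT lithium and 8.06 to 9.02 in WT vehicle libraries. The medians lay between 8.14 in Het lithium and 8.44 in WT vehicle, and all groups overlapped. Per unit of this level, log2 expression rose by 4.92 ± 0.39 (SE) for Six3, 2.82 ± 0.18 for Drd2, 2.39 ± 0.12 for Adora2a, 1.85 ± 0.12 for Gpr6 and 1.60 ± 0.058 for Rgs9. It rose by 1.42 ± 0.11 for Drd1, 1.22 ± 0.091 for Ppp1r1b and 0.92 ± 0.065 for Pde10a, with the largest limma adjusted p of the 8 at 8.5e-15. The indirect-pathway genes Drd2, Adora2a and Gpr6 had larger fitted slopes than the direct-pathway gene Drd1, and the difference in slope between genes was not tested. After this level was taken into the model, the residual standard deviation fell to 0.158 for Rgs9, 0.179 for Pde10a and 0.484 for Drd2, against 0.161 for the median gene.

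**Figure D2:**
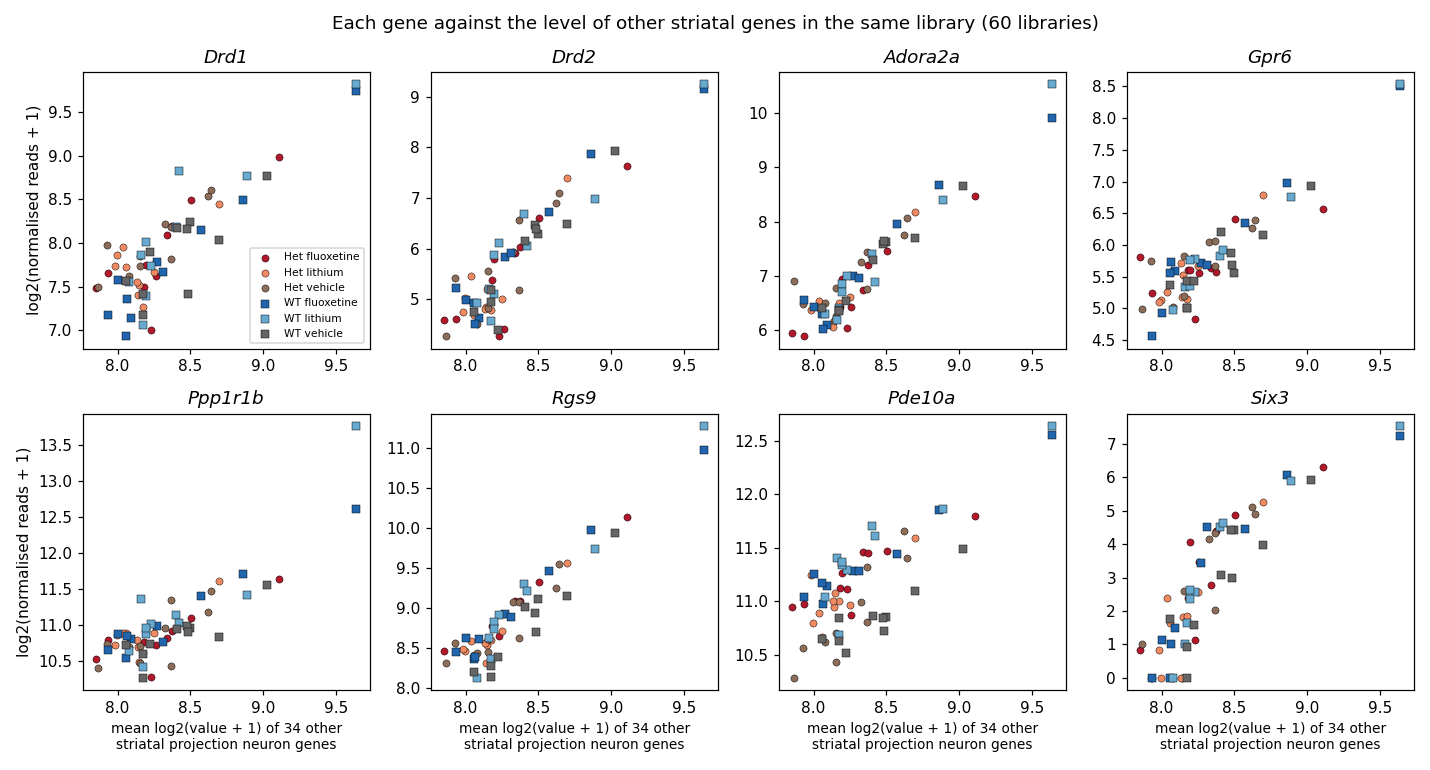
Log2(normalised reads + 1) of each of the 8 genes against the mean log2 level of 34 other striatal projection neuron genes in the same library, 1 point per library, with Het groups as circles and WT groups as squares. Each gene climbs with the other striatal genes in all 6 groups, WT fluoxetine female 1 and WT lithium female 5 lie at the upper right at 9.64 and 9.63, and most WT vehicle squares of Pde10a run low at a given striatal level.

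Markers of other cell types were compared library by library in the same way, as the mean level of 12 lists. Besides the other striatal genes (r = 0.91), the 3 tested genes of striatal cholinergic interneurons moved with the 8 genes (r = 0.88). So did the mean of 12 oligodendrocyte and myelin genes (r = 0.61) and, less uniformly, that of 15 genes of cortical layers 5 and 6 (r = 0.51), with permutation p adjusted over the 12 lists of 6e-05, 6e-05, 0.00016 and 0.0028. Spearman's rho was 0.84, 0.79, 0.67 and 0.47, and without the 2 farthest libraries r was 0.89, 0.81, 0.59 and 0.42. Of the 15 layer 5 and 6 genes taken singly, 3 had r of at least 0.5, namely Foxp2 (0.75), Bcl11b (0.66) and Ccn2 (0.63). Foxp2 and Bcl11b are also expressed in striatal projection neurons. The list median was 0.31 and the lowest was Etv1 (-0.45). The mean of genes of layers 2 to 4 went the other way (r = -0.28, adjusted p = 0.083, and rho = -0.32, adjusted p = 0.0498). Lists of the olfactory bulb, the septum, the thalamus, the choroid plexus and cortical interneurons gave r between -0.11 and 0.17. Of their genes taken singly, r reached 0.5 for Clic6 (0.78) and Foxj1 (0.59) of 7 choroid plexus and ependyma genes. It also did for Prkcd (0.52) of 8 thalamus genes and Gad2 (0.52) of 12 interneuron genes. No gene of the olfactory bulb and septum lists reached 0.5. The summed level of the cholinergic genes Chat, Slc5a7 and Slc18a3 ran from 47.8 to 116.1 normalised reads in Het fluoxetine, 41.4 to 96.3 in Het lithium, 42.4 to 79.9 in Het vehicle, 43.6 to 190.9 in WT fluoxetine, 29.2 to 205.9 in WT lithium and 43.2 to 146.5 in WT vehicle libraries. These were 3 of the 6 listed cholinergic genes, and none was at 0 in any library. The summed oligodendrocyte and myelin genes ran from 83171.2 to 193315.6 in Het fluoxetine, 85693.2 to 141083.1 in Het lithium, 59725.4 to 195516.5 in Het vehicle, 82983.4 to 216650.9 in WT fluoxetine, 73589.1 to 194018.9 in WT lithium and 103959.4 to 198609.1 in WT vehicle libraries, with r of at least 0.5 for 9 of 12. Cortical markers were present throughout, with sums of the layer 2 to 4 genes between 23356.5 and 31153.5 normalised reads. The part of other tissue in the dissection in these values was not tested, and in bulk tissue fewer cells of a type and less RNA per cell cannot be told apart.

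**Figure D3:**
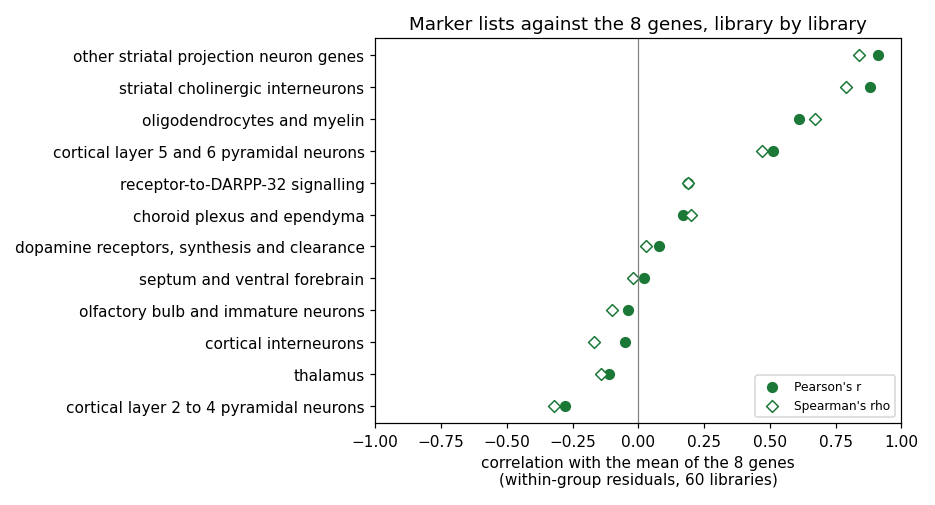
Correlation over 60 libraries between the mean of the 8 genes and the mean of each of 12 marker lists, after subtraction of group means, with filled circles for Pearson's r and open diamonds for Spearman's rho. Other striatal genes and striatal cholinergic markers lie near 0.9 in Pearson's r, with rho of 0.84 and 0.79. Oligodendrocyte and deep-layer markers lie between 0.47 and 0.67, and the other lists near or below 0.2.

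Pde10a was the gene of the 8 that differed with treatment. Its lowest, median and highest libraries were 1869.8, 2340.1 and 3557.2 normalised reads in Het fluoxetine, 1617.4, 2021.2 and 3090.5 in Het lithium, and 1243.9, 1727.8 and 3221.9 in Het vehicle mice. In WT mice they were 2013.0, 2463.7 and 6021.2 with fluoxetine, 1645.7, 2677.0 and 6357.7 with lithium, and 1464.6, 1835.4 and 2866.4 with vehicle. All 10 fluoxetine libraries and 9 of 10 lithium libraries of WT mice lay above the log2 mean of the WT vehicle libraries, although the ranges overlapped.

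In WT mice Pde10a rose by 0.55 ± 0.18 log2 (SE) with fluoxetine against vehicle, limma adjusted p = 0.039. This was the only one of the 8 genes called there, where 8.43% of all genes were called and 4.35% were called higher. With lithium against vehicle in WT mice it rose by 0.65 ± 0.18, adjusted p = 0.0076, again alone among the 8, where 19.2% of all genes were called and 9.34% called higher. In Het mice the difference was 0.37 ± 0.18 with fluoxetine, adjusted p = 0.091, and 0.14 ± 0.18 with lithium, adjusted p = 0.79. None of the 8 genes was called in those comparisons, where 39% and 0.983% of all genes were, and 1 and 0 of the 8 had an unadjusted p below 0.05. For Pde10a the interaction of genotype with drug was not called: it was -0.18 ± 0.25 for fluoxetine (adjusted p = 0.64) and -0.51 ± 0.25 for lithium (adjusted p = 0.44). None of the 8 genes was called in either interaction, against 24% and 0.0674% of all genes. At an unadjusted p below 0.05 there were 0 and 1, Pde10a with lithium (limma unadjusted p = 0.047). With the covariate and a GC correction the fluoxetine interaction of Pde10a was called (-0.34, adjusted p = 0.0403). Comparisons of both drugs in 1 genotype share the vehicle libraries.

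The fluoxetine call in WT mice was close to the threshold. Of 20 fits that each left out 1 library, 7 kept it, with fold changes of 0.43 to 0.64, and it was lost when WT fluoxetine and WT vehicle were compared alone (adjusted p = 0.051) and without the 2 libraries high in striatal genes (0.43, adjusted p = 0.069). The lithium call held in all 20 such fits (0.53 to 0.73) and without those 2 libraries (0.53, adjusted p = 0.013), but not without WT lithium female 5, WT lithium male 5 and WT vehicle female 2 together (0.48, adjusted p = 0.053).

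Between the other 7 genes and the drugs no call was made. With fluoxetine their differences ran from -0.26 to 0.50 log2 in Het mice and from -0.08 to 0.28 in WT mice. With lithium they ran from -0.88 to 0.00 in Het mice and from 0.05 to 0.41 in WT mice, and no unadjusted p was below 0.05 in any of the 4 comparisons. The standard error of a difference was 0.96 for Six3, 0.53 for Drd2 and 0.43 for Adora2a, so the precision for these 3 genes was low.

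When the level of the other striatal genes in each library was added to the model as a covariate, the errors shrank and more of the signalling genes differed with treatment. Pde10a rose by 0.59 ± 0.077 with fluoxetine (limma adjusted p = 9.2e-07) and by 0.63 ± 0.077 with lithium (adjusted p = 3.4e-07) in WT mice, and by 0.32 ± 0.077 with fluoxetine in Het mice (adjusted p = 0.00078). With lithium in Het mice the difference was 0.22 ± 0.077, adjusted p = 0.14. Adjusted to the mean level of the other striatal genes, Pde10a lay between 11.21 and 11.55 log2 units in all WT fluoxetine libraries and between 10.57 and 10.98 in all WT vehicle libraries, with no overlap. WT lithium libraries lay between 10.82 and 11.63. All 20 fits that left out 1 library kept each of the 3 calls. Among the covariate fits the Het fluoxetine call was lost in 1, with an added library term (0.41, adjusted p = 0.27). That term marks 10 libraries taken as a set apart: those of Het fluoxetine except male 1, and WT vehicle female 2. The values that set them apart from the rest are not given here. The term nearly coincides with the Het fluoxetine group, so fits with it cannot decide on fluoxetine in Het mice.

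With the covariate 3 of the 8 genes, Pde10a, Rgs9 and Ppp1r1b, differed among the 6 groups, with limma adjusted p = 8.4e-09, 0.00014 and 0.021, where 57% of all genes were called. The call of Ppp1r1b was lost with the library term (adjusted p = 0.058), a squared covariate (0.065) or the median covariate (0.12). Rgs9 came next after Pde10a. Its lowest, median and highest libraries were 352.4, 468.0 and 1128.2 normalised reads in Het fluoxetine, 318.2, 375.4 and 759.7 in Het lithium, and 317.8, 393.8 and 752.6 in Het vehicle mice. In WT mice they were 328.8, 435.3 and 2018.3 with fluoxetine, 279.5, 468.5 and 2475.1 with lithium, and 282.0, 454.4 and 980.7 with vehicle, so unadjusted values overlapped throughout. With the covariate, Rgs9 rose in WT mice by 0.34 ± 0.069 with fluoxetine (limma adjusted p = 0.00053) and by 0.30 ± 0.069 with lithium (adjusted p = 0.0018), and both calls held in all 20 fits that left out 1 library. Both were lost with the median in place of the mean of the striatal genes as covariate, at 0.33 (adjusted p = 0.095) and 0.34 (adjusted p = 0.054), while that fit called Rgs9 higher with fluoxetine in Het mice (0.32, adjusted p = 0.042). Without the covariate the differences were 0.28 ± 0.28 and 0.32 ± 0.28, adjusted p = 0.61 and 0.45.

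Ppp1r1b ran from 1491.4 to 6266.8 normalised reads around a median of 1866.7 in WT fluoxetine libraries, from 1372.5 to 13882.8 around 2090.3 in WT lithium libraries, and from 1235.1 to 3004.7 around 1874.1 in WT vehicle libraries. With the covariate it rose by 0.39 ± 0.11 with lithium in WT mice (limma adjusted p = 0.0084), in all 20 fits that left out 1 library. Without the 2 libraries high in striatal genes the lithium value was 0.26 (adjusted p = 0.039). WT lithium female 5 also had the highest adjusted Ppp1r1b level, at 12.16 log2 units. With the covariate Ppp1r1b stood at 0.32 ± 0.11 with fluoxetine (adjusted p = 0.053). The covariate fit thus called 2 of the 8 genes with fluoxetine in WT mice, Pde10a and Rgs9, where 9.14% of all genes were called, and 3 of the 8 with lithium, where 20.4% were. In Het mice it called 2 of 8 with fluoxetine, against 40.1% of all genes, and 0 of 8 with lithium by limma, against 1.34%, with 1 of the 8 at an unadjusted p below 0.05.

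The other call in Het mice was a fall of Adora2a with fluoxetine, by 0.37 ± 0.14 (limma adjusted p = 0.024). It was not called when the median in place of the mean of the striatal genes was the covariate (-0.04), nor with a correction for GC content (adjusted p = 0.11) or the added library term (adjusted p = 0.52), and 18 of 20 fits that left out 1 library kept it. Drd1, Drd2, Gpr6 and Six3 were not called for either drug with the covariate alone. With the GC correction added, Drd1 was called lower with fluoxetine in Het mice (-0.33, adjusted p = 0.0494). The covariate genes were measured in the same libraries and were not all still: of the 34, limma called 4 higher and 1 lower with fluoxetine in Het mice, 0 and 2 with fluoxetine in WT mice, 0 and 0 with lithium in Het mice, and 1 and 1 with lithium in WT mice. Over all genes 39%, 8.43%, 0.983% and 19.2% were called in these comparisons, in the same order.

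**Figure D4:**
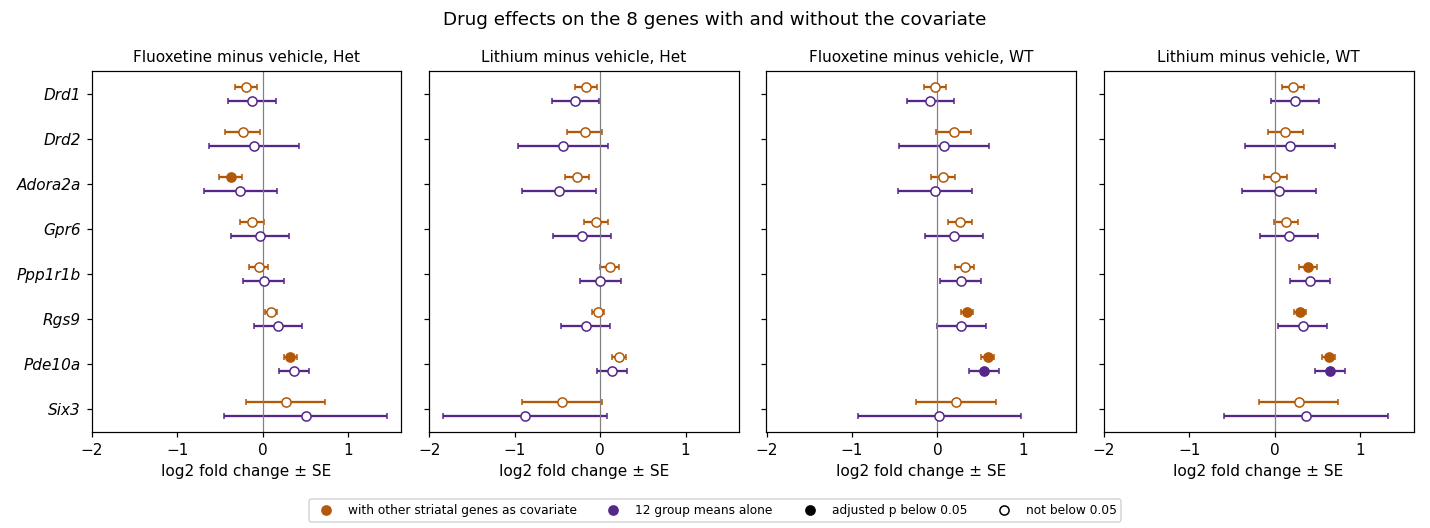
Log2 fold change ± SE of the 8 genes for fluoxetine and lithium against vehicle in Het and WT mice, from limma with (orange) and without (purple) the level of the other striatal genes as a covariate; filled points have an adjusted p below 0.05. Errors are smaller with the covariate for all 8 genes, and Pde10a stands to the right of 0 in all 4 panels.

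**Figure D5:**
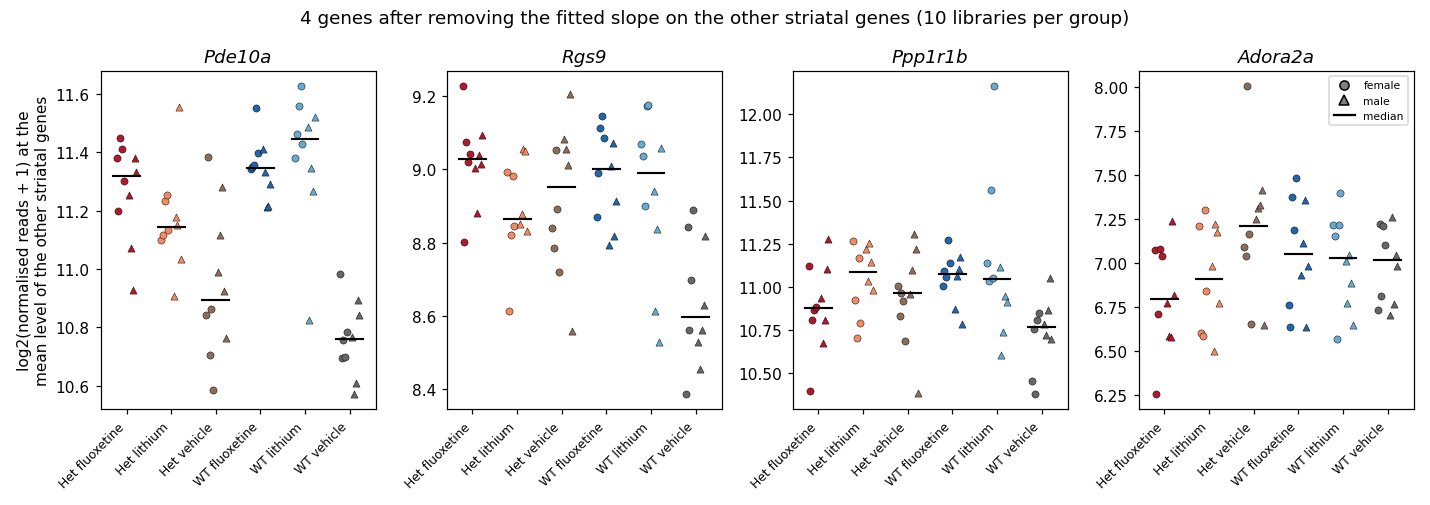
Log2(normalised reads + 1) of Pde10a, Rgs9, Ppp1r1b and Adora2a after the fitted slope on the other striatal genes was removed, 1 point per library (circles female, triangles male), with group medians as lines. WT fluoxetine values of Pde10a (11.21 to 11.55) lie above all WT vehicle values (10.57 to 10.98), and the highest Ppp1r1b point is WT lithium female 5.

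No difference between Het and WT mice was called for the 8 genes in the fit of group means. Het minus WT differences ran from -0.39 to 0.12 log2 with vehicle, from -0.45 to 0.09 with fluoxetine and from -1.64 to -0.41 with lithium. None of the 8 was called by limma or by edgeR, where limma called 0.59%, 39.5% and 0.0281% of all genes, and 0, 0 and 1 of the 8 had an unadjusted p below 0.05. The largest differences were those of Six3, -1.64 ± 0.96, and Drd2, -0.88 ± 0.53, with lithium (adjusted p = 0.52 and 0.53). They shrank to -0.27 ± 0.48 and -0.10 ± 0.21 with the covariate. The smallest p was that of Pde10a with lithium, at -0.48 ± 0.18 (limma unadjusted p = 0.0088, adjusted p = 0.28). With the covariate Pde10a stood at -0.22 ± 0.079 there (limma unadjusted p = 0.0068, adjusted p = 0.41). With the covariate 1 of the 8 genes was called between genotypes: Rgs9 was higher by 0.28 ± 0.070 in Het vehicle mice than in WT vehicle mice (adjusted p = 0.039, where 0.595% of all genes were called), in 6 of 20 fits that left out 1 library. Between Het and WT mice with fluoxetine and with lithium the covariate fit called none of the 8, where 40.2% and 0% of all genes were called, and 0 and 1 of the 8 had an unadjusted p below 0.05. The interactions of genotype with fluoxetine and with lithium likewise called none (25.4% and 0.0561% of all genes), with 4 and 2 of the 8 at an unadjusted p below 0.05. Those 2 with lithium were Pde10a (-0.41 ± 0.11, limma unadjusted p = 0.00047, adjusted p = 0.12) and Rgs9 (-0.32 ± 0.098, unadjusted p = 0.0016, adjusted p = 0.17). In normalised reads the Rgs9 medians were 393.8 in Het vehicle and 454.4 in WT vehicle libraries, in the opposite order. The Rgs9 call between genotypes shares its WT vehicle libraries with the Rgs9 drug calls in WT mice. With the covariate, Het minus WT differences with vehicle ran from 0.19 to 0.45 log2 over the 8 genes.

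No difference between males and females was called for the 8 genes. Male minus female differences ran from -0.27 to -0.06 log2, with limma adjusted p = 0.999 for all 8, no unadjusted p below 0.05, and 0.107% of all genes called. The interactions of sex with genotype and with each drug called none of the 8, by limma or edgeR, and none had an unadjusted p below 0.05. Of all genes 0% were called in 4 of these 5 interactions and 9.64% in that of sex with lithium in WT mice. In the interaction of sex with lithium the covariate fit called Ppp1r1b (-0.70 ± 0.22 for the male minus the female lithium effect, adjusted p = 0.037, with 9.87% of all genes called). This fell to -0.47 (adjusted p = 0.14) without the 2 libraries high in striatal genes, of which WT lithium female 5 is in this comparison. The call held in 12 of 20 fits that left out 1 library and in none of the other covariate fits.

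Of 13 tested genes for receptors, synthesis and clearance of dopamine outside the 8, none reached r = 0.5 with their mean. The D5 receptor gene Drd5 had 51.5 to 149.3 normalised reads over the libraries and r = 0.05, and Th, the rate-limiting enzyme of dopamine synthesis, r = -0.10. With lithium in WT mice 1 of the 13 rose and 2 fell, near the share of 19.2% of all genes called there. Drd5 rose by 0.58 ± 0.11 (limma adjusted p = 0.00018), while Gch1, which makes the cofactor of Th, fell by 0.49 ± 0.12 (adjusted p = 0.0025) and Qdpr, which recycles it, fell by 0.20 ± 0.051 (adjusted p = 0.0043). With fluoxetine in Het mice 2 of the 13 rose and none fell, where 39% of all genes were called. Maoa, an amine-degrading oxidase, rose by 0.17 ± 0.049 (adjusted p = 0.0045) and Pts, also of cofactor synthesis, by 0.21 ± 0.070 (adjusted p = 0.015). The Het fluoxetine group nearly coincides with the 10 libraries of the library term, so drug and library set cannot be told apart there. With fluoxetine in WT mice and lithium in Het mice limma called 0 of the 13. The list median log2 change was -0.036, 0.055, -0.021 and 0.12 with lithium in WT, fluoxetine in Het, fluoxetine in WT and lithium in Het mice, against 0.0039, 0.0048, 0.00014 and -0.0015 over all genes.

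Among 25 tested genes that link the receptors to DARPP-32, 8 had r of at least 0.5 with the mean of the 8 genes and 1 had r of -0.5 or less, the G protein beta subunit Gnb1 (-0.61). Adcy5, Gnal (0.80), Gng7, Pde1b (0.91) and Pde7b (0.87) were among those that reached 0.8. With fluoxetine in Het mice limma called 7 of the 25 higher and 3 lower, a share near the 39% of all genes called there. The 4 with the smallest p were Gnai1 (0.29 ± 0.058, adjusted p = 1e-04), Pde4b (0.16 ± 0.034, adjusted p = 0.00017), the DARPP-32 kinase Cdk5 (-0.17 ± 0.039, adjusted p = 0.00052) and the protein kinase A subunit Prkar2b (0.22 ± 0.053, adjusted p = 0.00088). For these calls, too, fluoxetine in Het mice cannot be told apart from the set of libraries marked by the library term. With lithium in WT mice 1 of the 25 rose, the cyclic AMP-regulated phosphoprotein Arpp21 (0.14 ± 0.042, adjusted p = 0.013), and none fell, where 19.2% of all genes were called. In the remaining drug comparisons 0 of the 25 were called.

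Chrm4, the M4 muscarinic receptor of direct-pathway neurons, fell by 0.72 ± 0.11 with fluoxetine in Het mice (limma adjusted p = 2.6e-06), by 0.37 ± 0.11 with fluoxetine in WT mice (adjusted p = 0.027) and by 0.30 ± 0.11 with lithium in WT mice (adjusted p = 0.049). Strip2 rose by 0.51 ± 0.078 with fluoxetine in Het mice (adjusted p = 1.5e-06) and by 0.38 ± 0.078 with lithium in WT mice (adjusted p = 0.00047). Ebf1, a transcription factor of direct-pathway neurons, fell by 0.46 ± 0.11 with fluoxetine in WT mice (adjusted p = 0.0043). Its r with the mean of the 8 genes was only 0.04, against 0.53 for Chrm4 and 0.65 for Strip2. Chrm4, Strip2 and Ebf1 are among the covariate genes. Of all genes 39% were called with fluoxetine in Het mice, 8.43% with fluoxetine in WT mice and 19.2% with lithium in WT mice. The Het fluoxetine differences of Chrm4 and Strip2 cannot be told apart from a difference of the 10 libraries of the library term.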

How the data were processed

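RNA of 60 prefrontal cortex libraries was sequenced from TruSeq Stranded mRNA libraries, per the labels' protocols. The deposited table holds a normalised signal, read counts divided by 1 size factor per library. The values were whole multiples of 1 step per library, so reads were recovered (100% whole within 0.001). Salmon 0.11.2, DESeq2 1.19.11, R 3.6.0 and GRCm38 are named per the submitters' processing notes, without their roles.

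Genes were tested with limma 3.58.1 (R 4.3.3, trend and robust) on log2(value + 1), with 12 group means, 48 residual degrees of freedom and 17810 genes of at least 10 in at least 5 libraries. P-values were adjusted by Benjamini-Hochberg over all genes, with calls below 0.05. edgeR 4.0.16 on recovered reads (17776 genes) was an alternative, as were a pseudocount of 5, no filter, TMM scaling, a GC correction, a replicate block, a term for 10 libraries, the striatal covariate, groups compared alone and leaving out libraries. The covariate was the mean log2 level of 34 of 36 listed striatal genes. Some covariate variants and those without the 2 highest libraries were chosen after seeing the data. The 8 genes and all lists were chosen with earlier results of these data known. Genes most alike were named by rank, of which 1 is not reported here, and in other lists the called genes with the smallest p. Correlations used 100000 permutations (scipy 1.17.1, numpy 2.4.6, pandas 2.3.3, Python 3.11.15). Figures were drawn with matplotlib 3.10.9. The scripts were tested on simulated data. Depth was 23901635 to 37769417 reads per library, and read limits cover counting error only.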

Additional observations from a re-analysis of the deposited data

Results flagged for a closer look

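In each group of 5 libraries of 1 genotype, treatment and sex, the highest and lowest value of each gene was compared with its nearest neighbour by Dixon's gap ratio at 95%. Of 96 gene and group combinations 40 held a library apart from the rest, where chance marks about 1 in 20 of normally distributed values. The 8 genes move together, so these are not independent. The library was on the high side in 37, and the 40 come from 9 libraries. Values are normalised reads. The library WT lithium female 5 stood apart for 8 of the 8 genes, with 902.6 for Drd1 (nearest library 288.9), 604.5 for Drd2, 1479.6 for Adora2a, 369.2 for Gpr6, 13882.8 for Ppp1r1b, 2475.1 for Rgs9, 183.2 for Six3 and 6357.7 for Pde10a. In Het fluoxetine male 2 the values apart from the group were 507.2 for Drd1 (nearest library 214.0), 196.1 for Drd2, 353.9 for Adora2a, 93.5 for Gpr6, 3183.0 for Ppp1r1b, 1128.2 for Rgs9 and 77.8 for Six3, for 7 of the 8 genes. For 7 of the 8 genes WT vehicle male 5 was far from its group: 436.9 for Drd1 (nearest library 237.1), 243.3 for Drd2, 120.7 for Gpr6, 3004.7 for Ppp1r1b, 980.7 for Rgs9, 59.9 for Six3 and 2866.4 for Pde10a. The library Het lithium female 4 stood apart for 7 of the 8 genes, with 167.8 for Drd2 (nearest library 35.6), 289.6 for Adora2a, 109.0 for Gpr6, 3144.5 for Ppp1r1b, 759.7 for Rgs9, 37.4 for Six3 and 3090.5 for Pde10a. In Het vehicle female 2 the values apart from the group were 369.9 for Drd1 (nearest library 229.9), 117.9 for Drd2, 610.1 for Rgs9, 33.2 for Six3 and 3221.9 for Pde10a, for 5 of the 8 genes. WT vehicle female 1 was the library on the low side, for 3 of the 8 genes, with 144.1 for Drd1 (nearest library 260.9), 1235.1 for Ppp1r1b and 282.0 for Rgs9. WT lithium male 3 stood apart for Adora2a alone, at 334.7 normalised reads (nearest library 117.2). WT fluoxetine male 3 stood apart for Gpr6 alone, at 80.4 normalised reads (nearest library 52.3). WT vehicle female 3 stood apart for Pde10a alone, at 2190.7 normalised reads (nearest library 1856.9).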

How the results depend on the processing

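With the covariate of other striatal genes, 1 of the 8 genes was called between Het and WT with vehicle, 2 with fluoxetine in Het mice, 2 with fluoxetine in WT mice, 3 with lithium in WT mice, 1 in the interaction of sex with lithium in WT mice and 3 among the 6 groups. Fits that also added a GC correction, the library term or a squared covariate, left out 2 or 3 libraries, or used the median of the striatal genes called 0 to 1, 0 to 2, 1 to 3, 2 to 3, 0 and 2 to 3 genes in these comparisons, in the same order. In the interaction of genotype with fluoxetine they called 2 (Rgs9 and Pde10a with GC, Ppp1r1b and Rgs9 without 3 libraries) or 1 (Rgs9, without the 2 high libraries). The count with fluoxetine in WT mice was 0 when the groups were compared alone or without the 2 high libraries, and with lithium in WT mice 0 without 3 libraries. Without the 2 high libraries 1 gene was called with fluoxetine in Het mice. The cause of these moves was not tested. Leaving out 1 library at a time gave 0 to 1 calls with fluoxetine in Het mice and 0 to 1 in WT mice, and the other counts stayed as reported.

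The spread between libraries of 1 group, without the 2 high libraries, was 0.504 for Drd1, 1.017 for Drd2, 0.7658 for Adora2a, 0.5712 for Gpr6, 0.3514 for Ppp1r1b, 0.4978 for Rgs9 and 0.3332 for Pde10a. It was 0.4127 for Ppp1r1b without 3 libraries and 1.417 for Six3 with a pseudocount of 5. Among the reported differences, those that changed direction were near 0 and not called in the fit of group means. Rgs9 between Het and WT with vehicle was -0.05248 by edgeR and -0.08221 to 0.1634 with 1 library left out. Pde10a in the same comparison was -0.08681 to 0.1136 with 1 library left out. Pde10a between Het and WT with fluoxetine was 0.007909 with covariate and library term and 0.006755 with the median covariate. The replicate block changed no call: the adjusted p of Pde10a was 0.0496 with fluoxetine and 0.01027 with lithium in WT mice. Residuals of samples with the same replicate number had correlations from -0.3371 to 0.3745, with medians per number between -0.00507 and 0.004246. Whether some of these samples share a litter, a mother or a batch was not tested. Six3 and Drd2 are limited by low counts.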
